A study of Mus musculus with 4 samples.

Results

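The heterotrimeric G protein subunits and the regulators of G protein signaling (RGS genes) were examined in ribosome-bound RNA of midbrain dopamine neurons. Members were taken by gene symbol: all alpha (Gna), beta (Gnb) and gamma (Gng) subunit genes and the numbered Rgs genes for which the array has a probe set with a single symbol. This gave 53 of 18193 genes, each read on its brightest probe set. They are 31 subunit genes, 21 RGS genes, which include the RGS anchoring proteins Rgs7bp and Rgs9bp, and Gnasas1, an antisense RNA of the Gnas locus that the symbol rule also takes. RNA was measured on Affymetrix 430 2.0 arrays in 2 fractions of adult mouse midbrain (both sexes, 6 to 12 weeks). TRAP (replicates 2 and 4) is RNA bound to ribosomes that carry the eGFP/RPL10A tag, and input (replicates 1 and 2) is RNA of the whole dissected midbrain, which the sample labels call unbound. Each array holds a pool of 5 mice of the Slc6a3 JD1640 TRAP line, so the mice of both fractions carry the transgene. It is driven by a bacterial artificial chromosome of Slc6a3, the dopamine transporter gene, in 1 founder line begun on FVB and later crossed to C57BL6/J.

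A heterotrimeric G protein carries the signal of a receptor at the cell membrane. The activated receptor loads the alpha subunit with GTP, and the alpha subunit and the beta-gamma dimer then act on enzymes and channels. Gs and Golf stimulate adenylate cyclase, Gi and Gz inhibit it, Go acts largely through its beta-gamma dimer, and Gq and G11 activate phospholipase C beta. RGS proteins end the signal by speeding GTP hydrolysis on the alpha subunit. In dopamine neurons the D2 autoreceptor and the GABA-B receptor signal through Gi and Go, and the released beta-gamma dimers open GIRK potassium channels.

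Levels are the deposited GCRMA values on the linear scale, in arbitrary expression units, and are compared between arrays for 1 probe set, and no level is set against that of another gene; sums over a marker list serve only to set an array beside the others. A gene was taken as above background where both arrays of at least 1 fraction reached 50 units. The label of the TRAP fraction was borne out by its markers: all 10 dopamine neuron markers were higher in TRAP, with Ddc, the dopamine-synthesizing decarboxylase, at 28786 and 36202 units in TRAP and 3470 and 2364 units in input. The share of probe sets at 50 units or more ran from 35.2% to 35.8% by array. For Gapdh, a control of RNA quality, the 3′ probe set exceeded the 5′ one by 4.96 and 3.52 log2 units in TRAP and by 6.81 and 6.39 in input. The part of this in the results was not tested. In whole tissue, fewer cells of a type and less RNA per cell cannot be told apart. An input fraction was collected beside each TRAP replicate, but the arrays used here share only replicate number 2. If that number marks 1 pool, TRAP replicate 2 and input replicate 2 are not independent. The fit treated all 4 arrays as independent.

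Of the 53 genes 37 were above background, 23 subunit genes and 14 RGS genes. In TRAP 6 of these 37 (16.2%) rose, the subunit genes Gnas, Gnb4 and Gng3 and the RGS genes Rgs3, Rgs6 and Rgs7. Across all 10014 genes above background 18.7% rose, a share close to that of the G protein and RGS genes. In TRAP 2 genes (5.41%) fell, Gna13 and Rgs9, beside 6.87% of all genes (limma, Benjamini-Hochberg adjusted p under 0.05 over 45037 probe sets). The median log2 fold change was 0.59 over the 37 and 0.44 over all genes. Both TRAP arrays lay above both input arrays for 19 genes (51.4%, beside 52.3% of all genes) and below them for 9 (24.3%, beside 23.6%). The counts and the median of these genes were thus near those of the whole array, and the members differed among themselves. With each array centred on its bright probe sets, all log2 fold changes moved by about -0.41. The called members were then 8 higher and 5 lower, or 61.5% higher against 75.0% as deposited. Among all genes 50.2% of the called were higher against 73.1%. Centring added Rgs2 and Rgs19 to the higher members and Gna12, Gng12 and Rgs4 to the lower ones. After quantile normalization 4 members were higher and 2 lower, or 66.7% higher, against 54.6% of all called genes, and the calls of Gnb4 (adjusted p = 0.114) and Gng3 (0.0740) were lost. With the probe sets of each gene averaged 4 genes were higher, Rgs7 and also Gng2, Gng4 and Rgs2, and 1 was lower, Gna13. No share of all genes is set beside these averaged counts, so they are not read as an excess or a lack. Under that average Rgs3 and Rgs6 did not pass (log2 fold change 0.58 and 0.56, adjusted p = 0.0696 and 0.0511), nor did Gnb4 (0.0556) and Gng3 (0.0504). Of the 8 called genes Gnb4, Gng3, Rgs3, Rgs6, Rgs7, Gna13 and Rgs9 did not pass without TRAP replicate 2 or without TRAP replicate 4. Gnas kept its call, but such a fit takes its spread from 1 pair of arrays alone. Both pairs of Gnas were nearly the same. Gnb4, Gng3 and Gna13 also did not pass when input replicate 1 (0.129, 0.0854 and 0.0898) or input replicate 2 (0.0956, 0.120 and 0.119) was left out.

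**Figure D1:**
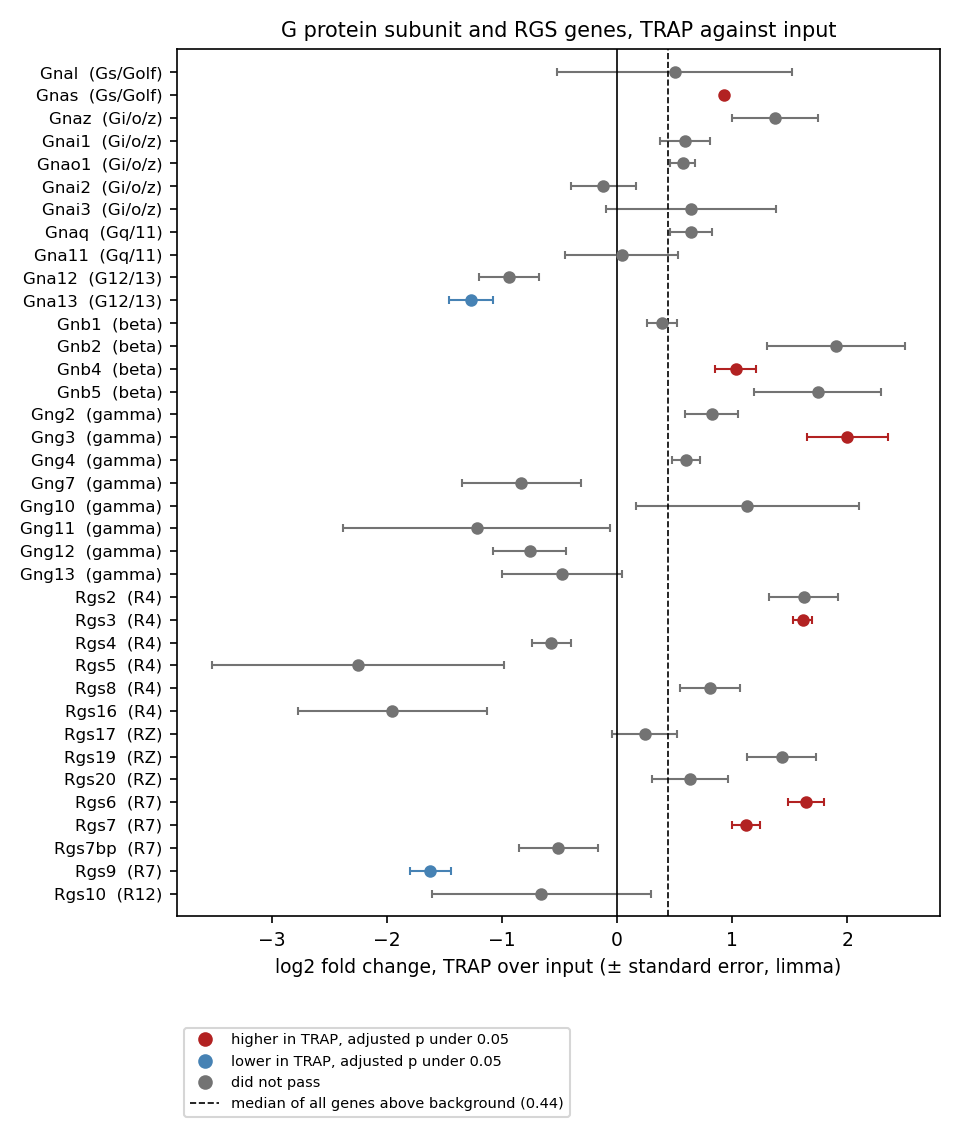
Log2 fold change of TRAP over input with its limma standard error for the 37 genes above background, by family, with the dashed line at the median of all genes above background (0.44). Red points rose (6 genes), blue points fell (2 genes) and grey points did not pass; the point of Rgs9 is drawn at its fitted value although its TRAP arrays lay under 50 units.

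Gnas, which encodes the stimulatory alpha subunit Gs, was at 25313 and 25482 units in TRAP, against 13536 and 13058 in input. The arrays of each fraction were nearly the same and the fractions lay apart. The rise was 1.91-fold (log2 fold change 0.93 ± 0.02 standard error (SE), limma adjusted p = 0.00131). With 1 array left out, the spread comes from the remaining pair of arrays alone. For Gnas the pairs differed by -0.01 log2 units in TRAP and 0.05 in input. A fit without an array therefore cannot add to its call. A dim probe set of the same gene went the other way: it lay at 4.61 units on both TRAP arrays and at 59.5 and 51.8 units in input, at least 1.11-fold lower (limma adjusted p = 0.00131). With the mean of all its probe sets, most of them under 50 units, Gnas had a log2 fold change of -0.76 (adjusted p = 0.133). Gnal encodes Golf, the olfactory relative of Gs that couples dopamine and adenosine receptors in the striatum. It was at 4029 and 3819 units in TRAP and at 1299 and 5950 in input. The input arrays were 4.58-fold apart and enclosed both TRAP values, so that no difference between the fractions could be seen (log2 fold change 0.50 ± 1.02 SE, limma adjusted p = 0.705). Without input replicate 1 its log2 fold change was -0.60, and without input replicate 2 it was 1.59.

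Of the 5 inhibitory alpha subunit genes, Gnai1, Gnai2, Gnai3, Gnao1 and Gnaz, 0 passed the threshold and 1, Gnao1, had an unadjusted p under 0.05 from limma. Gnao1, the main G protein alpha subunit of brain membranes, was at 3150 and 3246 units in TRAP and 1986 and 2329 in input. The fractions did not overlap, and the log2 fold change of 0.57 ± 0.11 SE (limma adjusted p = 0.0538) was near the 0.44 of all genes. Gnaz, the alpha subunit that pertussis toxin does not inactivate, was at 2537 and 2648 units in TRAP and 764 and 1316 in input (log2 fold change 1.37 ± 0.37 SE, adjusted p = 0.0852). Its second probe set passed, with 1364 and 1486 units in TRAP against 513 and 695 in input (log2 fold change 1.25, adjusted p = 0.0439). Gnai1 was at 12773 and 12674 units in TRAP and 9962 and 7178 in input, again without overlap (adjusted p = 0.139). Gnai2 overlapped between the fractions, with 5237 and 3656 units in TRAP and 4261 and 5328 in input. Gnai3 was at 380 and 392 units in TRAP, between the 432 and 142 of the input arrays. In each of these genes but Gnai2 the TRAP arrays were closer together than the input arrays. With 1 input array left out, the spread comes from the TRAP arrays alone. TRAP replicate 2 minus TRAP replicate 4 was 0.01 log2 units for Gnai1, -0.05 for Gnai3, -0.04 for Gnao1 and -0.06 for Gnaz. A fit without an input array therefore cannot decide whether the fractions differ in these genes.

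**Figure D2:**
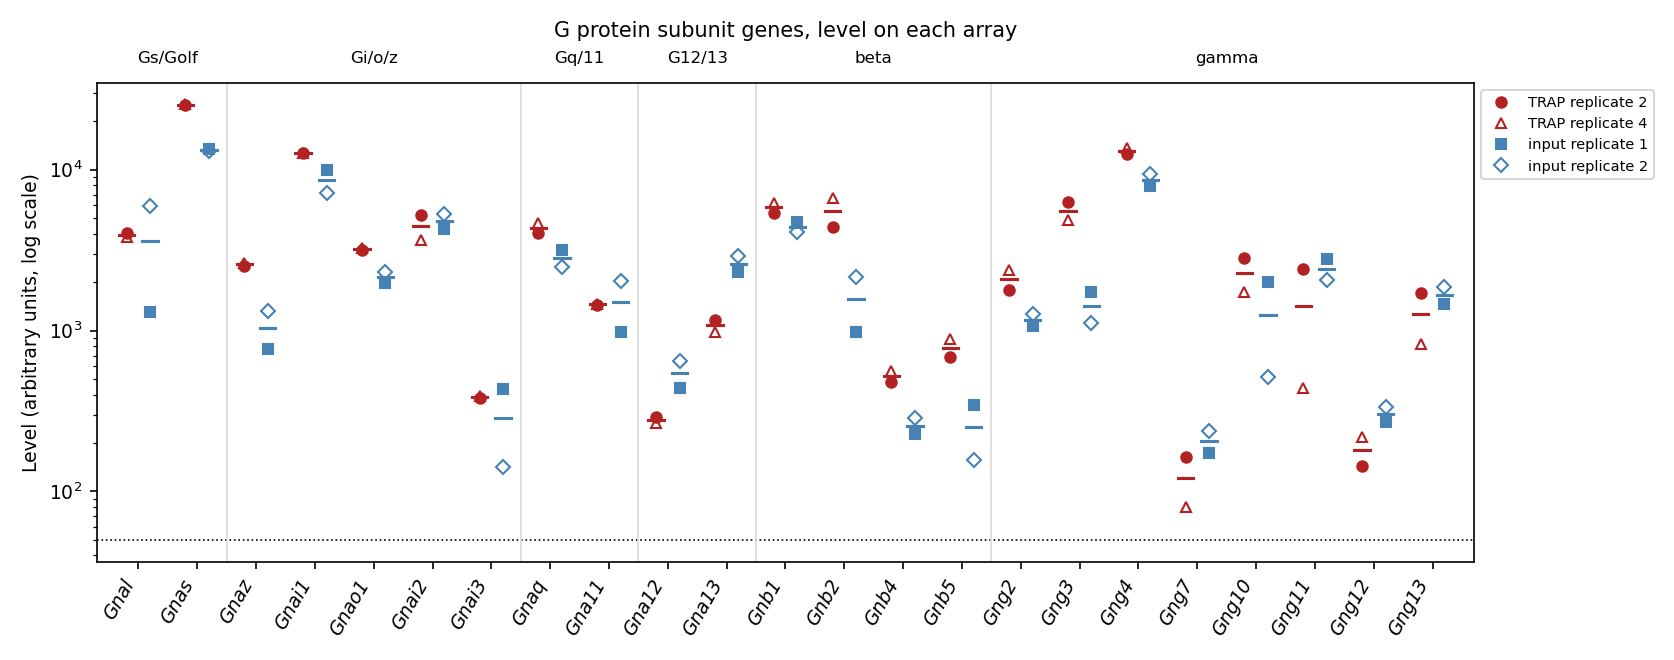
Level in arbitrary units (log scale) of the 23 G protein subunit genes above background on each array, TRAP in red to the left of input in blue, with short lines at the mean of 2 arrays and the dotted line at 50 units. The Gnas arrays form 2 tight pairs (25313 and 25482 against 13536 and 13058 units), while the input arrays of Gnal lie 4.58-fold apart.

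In the Gq family Gnaq, which couples receptors to phospholipase C beta, was at 4057 and 4688 units in TRAP and 3150 and 2496 in input on its brightest probe set (log2 fold change 0.64 ± 0.18 SE, limma adjusted p = 0.0918). A second bright probe set of Gnaq passed with a smaller difference, 3814 and 3935 units in TRAP against 2990 and 3043 in input (log2 fold change 0.36 ± 0.02 SE, adjusted p = 0.00803). That difference is below the 0.44 of all genes, and is thus no rise relative to them. Gna11, the close relative of Gnaq, was at 1443 and 1469 units in TRAP, inside the input range of 984 and 2037. Its direction turned on the input arrays, with a log2 fold change of -0.48 without input replicate 1 and of 0.57 without input replicate 2. Gna14 and Gna15, the Gq members known from non-neuronal tissues, were near the floor of the values in both fractions, with at most 5.62 units.

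The G12 family holds 2 genes, alpha subunits that do not act through adenylate cyclase. On their brightest probe sets both had the TRAP arrays below both input arrays, as had 23.6% of all genes. Of the 2, 1 fell, beside 6.87% of all genes. Gna13 was at 1170 and 986 units in TRAP, against 2305 and 2914 in input, a fall of 2.41-fold (log2 fold change -1.27 ± 0.19 SE, limma adjusted p = 0.0371). Gna12 was at 289 and 267 units in TRAP and 441 and 650 in input (log2 fold change -0.94 ± 0.26 SE, adjusted p = 0.0877). With the mean of all its probe sets Gna12 had a log2 fold change of 0.01. The 5 probe sets of Gna13 above background did not run one way. Of the others, 3 had log2 fold changes of -1.26, -0.16 and 0.81, and 1 with TRAP values under 50 units was at least 2.43-fold lower, with adjusted p between 0.0697 and 0.569 for the 4. The transducin genes Gnat1 and Gnat2, of photoreceptors, had no value above 5.10 units.

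All 4 beta subunit genes above background had both TRAP arrays above both input arrays, as had 52.3% of all genes, and 1 of them rose, beside 18.7% of all genes. Gnb4 was at 481 and 558 units in TRAP, against 227 and 285 in input, a rise of 2.04-fold (log2 fold change 1.03 ± 0.18 SE, limma adjusted p = 0.0479). A second probe set of Gnb4 gave 549 and 908 units in TRAP against 178 and 151 in input (log2 fold change 2.10 ± 0.35 SE, adjusted p = 0.0439), and the third did not pass. Gnb2 had a larger fold change with a larger error, at 4406 and 6663 units in TRAP and 974 and 2152 in input (log2 fold change 1.90 ± 0.60 SE, adjusted p = 0.106). Gnb5 is the beta subunit that binds R7 RGS proteins in place of a gamma subunit. It was at 681 and 888 units in TRAP and 343 and 158 in input (log2 fold change 1.74 ± 0.55 SE, adjusted p = 0.106). Gnb1 was at 5398 and 6252 units in TRAP and 4731 and 4126 in input. Its log2 fold change of 0.39 turned to -0.01 with centring and to -0.14 after quantile normalization, so its direction depends on the scale. Gnb3, known from cone photoreceptors and taste cells, did not exceed 5.04 units.

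The gamma subunits, which anchor the dimer in the membrane by a lipid tail, held both the largest rise among the subunit genes on their brightest probe sets and the subunit genes that differed most between the TRAP arrays. Gng3, a neuronal gamma subunit, was at 6294 and 4843 units in TRAP, against 1728 and 1107 in input. Both TRAP values were above both input values, and the rise was 3.99-fold (log2 fold change 2.0 ± 0.35 SE, limma adjusted p = 0.0461). Gng4 was at 12523 and 13583 units in TRAP and 7907 and 9349 in input (log2 fold change 0.60 ± 0.12 SE, adjusted p = 0.0625). Gng2 was at 1785 and 2381 units in TRAP and 1068 and 1271 in input (log2 fold change 0.82 ± 0.23 SE, adjusted p = 0.0852). For both, dimmer probe sets passed and gave larger differences. Those of Gng2 were at 449 and 379 units in TRAP against 96.4 and 74.0 in input (log2 fold change 2.29, adjusted p = 0.0148), and at 149 and 223 units in TRAP against 29.5 and 25.8 in input, at least 3.64-fold higher (adjusted p = 0.0188). That of Gng4 was at 505 and 684 units in TRAP against 94.3 and 113 in input (log2 fold change 2.51 ± 0.24 SE, adjusted p = 0.0156).

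No other gamma subunit gene passed. Gng10 was at 2825 and 1731 units in TRAP and 2000 and 512 in input, with an overlap between the fractions. Gng7, the partner of Golf in the striatum, was at 163 and 79.7 units in TRAP and 173 and 238 in input, and Gng12 at 143 and 219 units in TRAP and 269 and 333 in input. Both were lower on each TRAP array without passing (limma adjusted p = 0.286 and 0.169). With the arrays centred Gng12 passed (limma adjusted p = 0.0273), and after quantile normalization it did not (0.111). Gng13, a gamma subunit also known from taste cells, was at 1706 and 824 units in TRAP and 1461 and 1878 in input. Gng11 was at 2418 and 439 units in TRAP and 2781 and 2072 in input. In both, TRAP replicate 2 lay among the input values and TRAP replicate 4 below them. Gng8, Gngt1 and Gngt2 did not exceed 8.97 units. Gng5 was read only by probe sets that also name a pseudogene and was not analysed here.

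**Figure D3:**
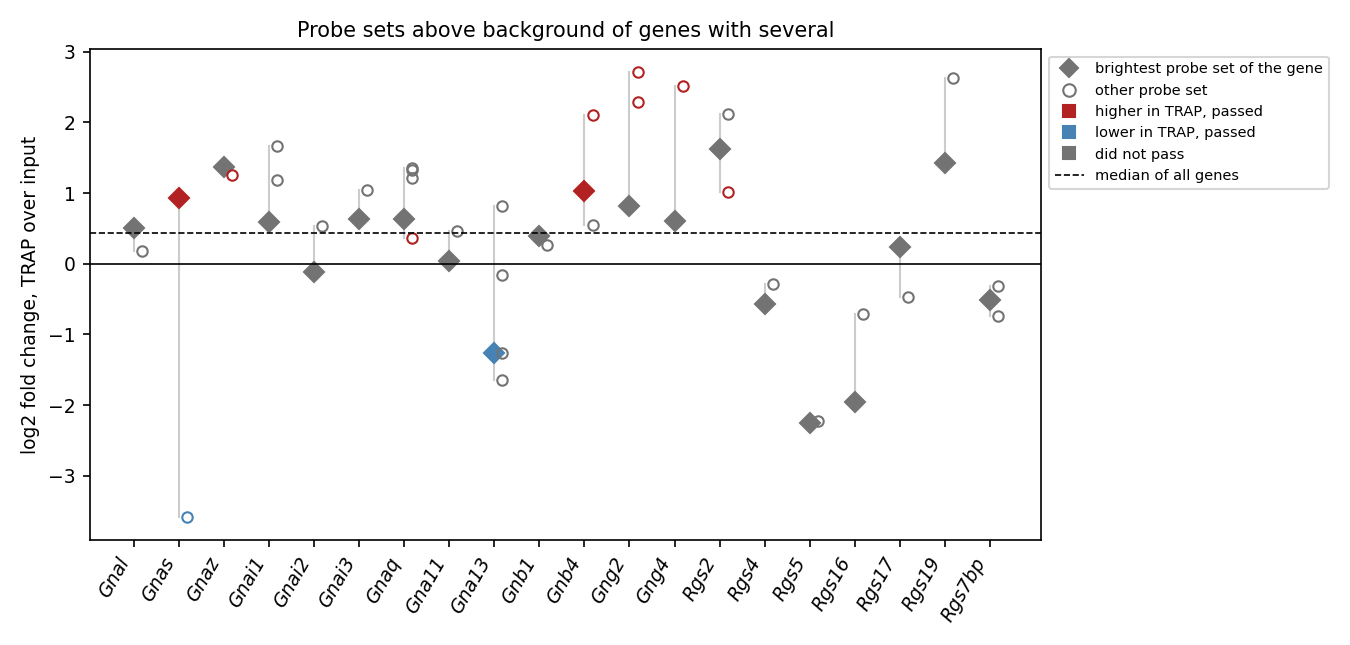
TRAP over input, as log2 fold change, of every probe set above background of the 20 genes with more than 1, diamonds for the brightest probe set and open circles for the others, red where it rose, blue where it fell and grey where it did not pass. Probe sets of Gnas lie on both sides of 0 (0.93 and -3.59), and those of Gng2 and Gng4 spread from 0.60 to 2.72, all above 0; the -3.59 and the 2.72 are fitted values against a fraction under 50 units, for which the bounds are 1.11-fold and 3.64-fold.

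The 37 genes have 68 probe sets above background, of which 13 (19.1%, beside 19.2% of all such probe sets) were higher in TRAP and 3 (4.41%, beside 8.15%) were lower. Counted by any probe set, 11 genes were higher, adding Gnaq, Gnaz, Gng2, Gng4 and Rgs2 to the 6 above, and 3 were lower, adding Gnas. The share of all genes under that rule was not computed. Several probe sets give any gene more ways to pass, so these counts cannot be read as an excess or as its absence. Probe sets of 1 gene share its RNA and are not replicates. In 4 of the 20 genes with several probe sets above background, Gna13, Gnai2, Gnas and Rgs17, they had both signs. The suffix _s_at or _x_at marks probe sets whose probes can match more than 1 transcript, and the brightest probe sets of Gnas, Gna13, Gnai1, Gng4 and Rgs19 carry it. So do the probe sets by which Gnaq and Rgs2 were added here, and 1 dim probe set of Gnai3.

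The R4 RGS genes, small proteins that act on Gi and Gq alpha subunits, diverged. Rgs3 was at 384 and 399 units in TRAP, against 136 and 121 in input, a rise of 3.06-fold (log2 fold change 1.61 ± 0.08 SE, limma adjusted p = 0.00472). Rgs2, which is selective for Gq, had a log2 fold change of like size with a wider spread. It was at 13810 and 16142 units in TRAP and 6001 and 3934 in input on its brightest probe set (log2 fold change 1.62 ± 0.30 SE, adjusted p = 0.0520). Another probe set of Rgs2 passed, at 9474 and 8413 units in TRAP against 4546 and 4273 in input (log2 fold change 1.02 ± 0.09 SE, adjusted p = 0.0137). Rgs8 was at 2175 and 2518 units in TRAP and 1117 and 1596 in input (adjusted p = 0.109). Rgs4, an RGS of many neurons, was on the other side, at 1319 and 1021 units in TRAP and 1712 and 1727 in input. It had a log2 fold change of -0.57 ± 0.17 SE (adjusted p = 0.0997), of -0.75 without TRAP replicate 2 and of -0.38 without TRAP replicate 4. With 1 TRAP array left, the spread comes from the input arrays alone, which for Rgs4 were nearly the same. Rgs16, a stimulus-induced RGS, was at 284 and 158 units in TRAP and 478 and 1393 in input (log2 fold change -1.95 ± 0.82 SE, adjusted p = 0.166). Rgs5, the RGS of pericytes, was at 334 and 51.2 units in TRAP and 697 and 557 in input (log2 fold change -2.25 ± 1.27 SE, adjusted p = 0.250). All 6 of these genes had fractions that did not overlap, 3 with TRAP above input and 3 with TRAP below, orders seen in 52.3% and 23.6% of all genes. Rgs1, Rgs13 and Rgs18, known from blood cells, did not exceed 4.90 units.

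**Figure D4:**
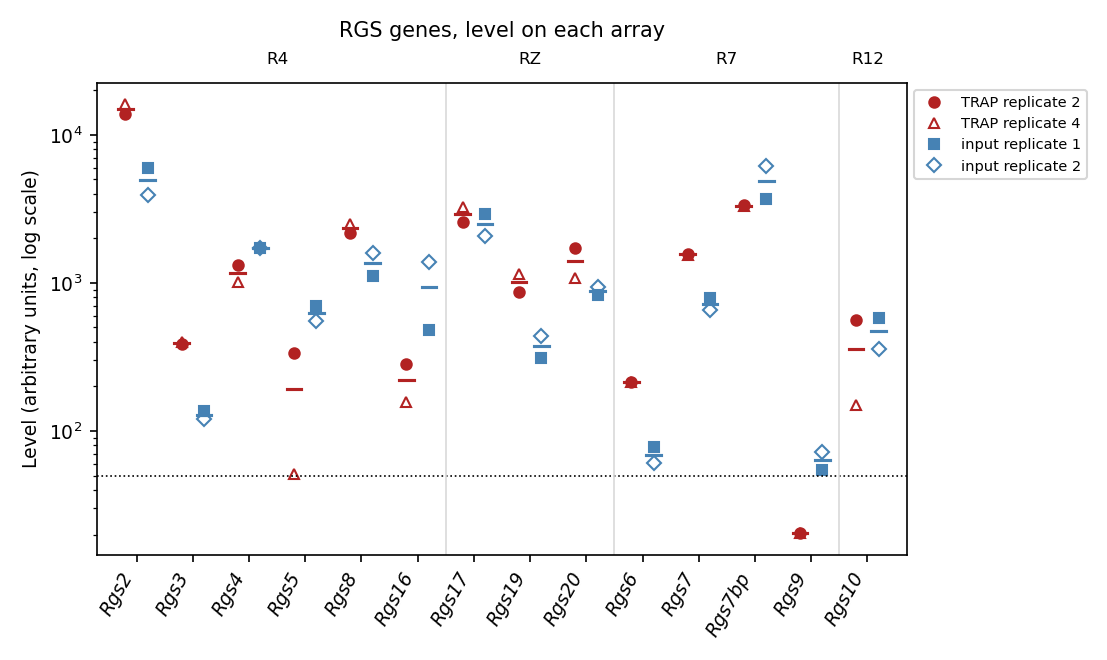
Level in arbitrary units (log scale) of the 14 RGS genes above background on each array, TRAP in red to the left of input in blue, with short lines at the mean of 2 arrays and the dotted line at 50 units. Within the R7 group the TRAP arrays of Rgs6 and Rgs7 lie above the input arrays and those of Rgs9 at 20.4 units below them.

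The R7 RGS proteins work as complexes with Gnb5 and a membrane anchor and act on Gi and Go. Of the 4 genes of the group above background, anchors included, 2 rose and 1 fell, beside 18.7% and 6.87% of all genes. Rgs6, which in mice is needed for the survival of dopamine neurons of the substantia nigra in later life, was at 214 units on both TRAP arrays, against 77.6 and 60.8 in input. The rise was 3.11-fold (log2 fold change 1.64 ± 0.16 SE, limma adjusted p = 0.0172). Rgs7 was at 1559 and 1555 units in TRAP, against 787 and 653 in input, a rise of 2.17-fold (log2 fold change 1.12 ± 0.12 SE, adjusted p = 0.0211). Rgs9, the R7 gene of the striatum and retina, went the other way. It was at 20.4 units on both TRAP arrays and at 54.9 and 72.1 in input, at least 1.26-fold lower (adjusted p = 0.0213), and with values under 50 units raised to 50 it did not pass (0.691). Rgs6 and Rgs9 have the same value on both TRAP arrays to every digit deposited, so the p of each rests on the spread of the input arrays. Rgs9 was just above background in input only, and it was not counted at a background of 100 units. Rgs7bp, the membrane anchor of R7 proteins in neurons, was at 3351 and 3298 units in TRAP and 3665 and 6127 in input (log2 fold change -0.51 ± 0.34 SE, adjusted p = 0.311). Without input replicate 1 the log2 fold change of Rgs7bp was -0.88. Rgs11 (at most 23.9 units) and Rgs9bp (at most 6.07), which anchors Rgs9 in photoreceptors, were below background in both fractions, as were the orphan receptors Gpr158 and Gpr179 that also bind R7 proteins.

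The 3 RZ genes, whose proteins include the RGS best known for Gz, were above background and 0 passed, with Rgs19 at an unadjusted p under 0.05 from limma. Rgs19 was at 864 and 1149 units in TRAP and 310 and 439 in input, without overlap (log2 fold change 1.43 ± 0.30 SE, adjusted p = 0.0635). It passed with the arrays centred, with dim probe sets left out of the fit and with an intensity trend in the prior. After quantile normalization (limma adjusted p = 0.118), with values under 50 units raised to 50 (0.204) or with its probe sets averaged, Rgs19 did not pass. Rgs20 was at 1733 and 1076 units in TRAP and 834 and 937 in input (adjusted p = 0.228). Rgs17 was at 2590 and 3262 units in TRAP and 2909 and 2067 in input, with overlapping fractions. Of the R12 genes Rgs10, an RGS of microglia and of some neurons, was at 563 and 149 units in TRAP and 583 and 357 in input. Rgs12 and Rgs14 were below background, Rgs12 with 60.4 units on 1 input array and 26.3 on the other.

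Below background were 16 of the 53 genes, and 13 of these had no value of 10 units or more. Gnasas1 was among them, at 4.61 units in TRAP and 4.59 in input. Of the 16, 11 have identical values within each fraction, where limma's p is not informative, and they are not counted above.

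The TRAP arrays differed by more than 2-fold for 5 of the 37 genes, beside 659 of all 10014, in each case with the higher level on replicate 2. Rgs5 was 6.52 times as high on TRAP replicate 2 as on TRAP replicate 4, Gng11 5.51 times, Rgs10 3.79 times, Gng13 2.07 times and Gng7 2.04 times. None of the 8 called genes was among them, the widest of those being Gng3 at 1.30 times. Without TRAP replicate 4 the log2 fold change of Gng11 was 0.01, that of Gng13 0.04 and that of Rgs10 0.30. The input arrays differed by more than 2-fold for 7 genes, beside 1302 of all 10014. The 7 were Gnai3, Gna11, Gnal, Rgs16, Gnb2, Gnb5 and Gng10. Markers of other cells were also higher on TRAP replicate 2. Of 3 mural cell markers above background 2 were higher there, with the list of 7 summing to 589 and 238 units in TRAP and to 1106 and 1278 in input. All 9 oligodendrocyte markers (83435 and 36463 units in TRAP, 101395 and 102027 in input), all 4 microglia markers above background (list sums 1021 and 480 in TRAP, 1609 and 3306 in input), 9 of 10 astrocyte markers (25611 and 14632 in TRAP, 42534 and 49522 in input) and 7 of 8 GABAergic neuron markers (11738 and 6585 in TRAP, 17964 and 10680 in input) were higher on replicate 2 as well. The mural markers Kcnj8 and Anpep and the microglia markers Trem2, P2ry12 and Itgam were at or near the floor on every array. The part of these cells in the levels of Rgs5, Gng11, Rgs10, Gng13 and Gng7 was not tested.

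**Figure D5:**
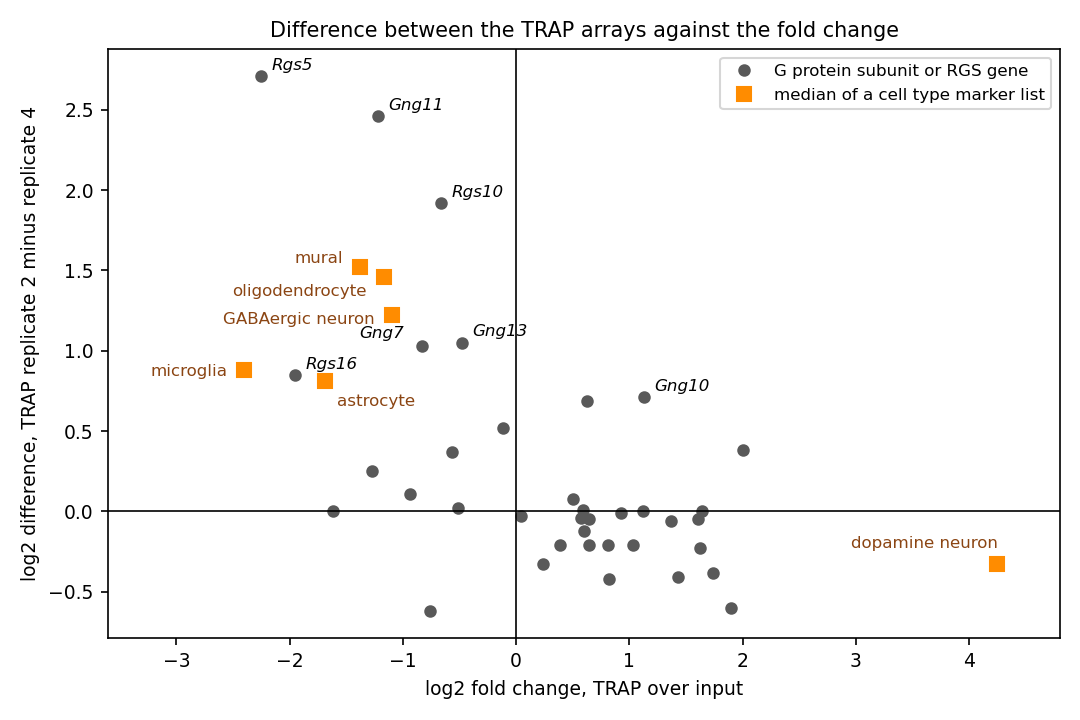
Log2 difference between TRAP replicate 2 and TRAP replicate 4 (vertical) against the log2 fold change of TRAP over input (horizontal) for the 37 genes (circles) and for the median of 6 cell type marker lists (squares). Rgs5, Gng11 and Rgs10 lie at the upper left, with values of 2.71, 2.46 and 1.92 on the vertical axis, and the dopamine neuron list lies at the far right (4.25 and -0.33); both axes use the TRAP arrays, so the points carry no test.

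Other genes of the pathway were read from lists of G protein regulators, effectors and receptors, whose counts stand beside 18.7% higher and 6.87% lower of all genes. Of 6 chaperone and exchange factor genes above background 1 rose, Ric8a, which folds and activates alpha subunits, at 4656 and 4679 units in TRAP against 2725 and 2805 in input (log2 fold change 0.76 ± 0.02 SE, limma adjusted p = 0.00131). Its log2 fold change was 0.35 with the arrays centred, and it did not pass after quantile normalization (0.23, adjusted p = 0.0860) or with dim probe sets left out of the fit (0.0513). The phosducin-like Pdcl (log2 fold change 1.49) and Pdcl3 (0.79) and the chaperonin subunit Cct2 (0.86), which assist beta-gamma assembly or folding, did not pass. The input arrays of Pdcl lay 4.3-fold apart and those of Pdcl3 2.26-fold. Of 5 activators and inhibitors of G protein signaling 1 rose, Rasd2, the small GTPase Rhes, at 2975 and 2856 units in TRAP against 746 and 679 in input (log2 fold change 2.03 ± 0.07 SE, adjusted p = 0.00217). Gpsm1, Gpsm2 and Rap1gap did not pass. Of 5 receptor kinase and arrestin genes 2 rose, Grk6 at 7495 and 8048 units in TRAP against 2734 and 3313 in input (log2 fold change 1.37 ± 0.14 SE, adjusted p = 0.0173), and Arrb1, beta-arrestin 1, at 1101 and 1245 units in TRAP against 522 and 650 in input (log2 fold change 1.01 ± 0.17 SE, adjusted p = 0.0432). Grk3 and Arrb2 did not pass. Leaving out TRAP replicate 2 (0.127) or TRAP replicate 4 (0.130) ended the call of Grk6, and leaving out any 1 array ended that of Arrb1 (up to 0.188). After quantile normalization neither passed (0.0563 for Grk6 and 0.138 for Arrb1).

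Among the effectors, 0 of 2 phospholipase C beta genes above background passed (limma, with 0 at an unadjusted p under 0.05), Plcb4 at 4792 and 7246 units in TRAP and 3807 and 5068 in input and Plcb1 at 1253 and 1656 in TRAP and 1616 and 1044 in input. Of 2 exchange factors with an RGS-like domain above background Arhgef11 rose, at 388 and 519 units in TRAP against 201 and 191 in input (log2 fold change 1.20 ± 0.20 SE, limma adjusted p = 0.0425), and Arhgef12 did not pass (log2 fold change -0.18). Arhgef11 missed the threshold without TRAP replicate 4 (0.0503), input replicate 1 (0.176) or input replicate 2 (0.189), and after quantile normalization (0.0530). Of 2 GIRK channel genes above background Kcnj3 fell, at 235 and 172 units in TRAP against 762 and 1041 in input (log2 fold change -2.15 ± 0.30 SE, adjusted p = 0.0306), and Kcnj9 did not pass. The other GIRK genes, Kcnj6 and Kcnj5, were below background. Kcnj6 was at 11.5 and 10.4 units in TRAP and 4.89 on both input arrays. Kcnj5 was at 10.5 units on both TRAP arrays and 44.7 and 61.8 in input. GIRK expression as a whole was thus not read here. Leaving out any 1 array ended the call of Kcnj3 (up to 0.130). Of 7 receptors that couple to Gi and Go 1 rose, Drd2, the D2 dopamine receptor, at 3319 and 4246 units in TRAP against 53.0 and 49.0 in input (log2 fold change 6.20, adjusted p = 0.00148). Gabbr1 (log2 fold change 1.11), Grm7 (-1.55) and Cnr1 (-1.10) did not pass. Of the 7, 5 had both TRAP arrays below both input arrays, beside 23.6% of all genes, and 0 of these passed. The other 2 had both TRAP arrays above, beside 52.3% of all genes. Of 4 receptors that couple to Gq 3 rose, Ntsr1, Tacr3 and Hcrtr1, and Grm5 did not pass. Ntsr1, a neurotensin receptor, had a log2 fold change of 4.51 (adjusted p = 0.0312). Tacr3, the neurokinin 3 receptor, was at 8761 and 10093 units in TRAP against 1277 and 776 in input (log2 fold change 3.24 ± 0.35 SE, adjusted p = 0.0195), and Hcrtr1, an orexin receptor, at 401 and 454 units in TRAP against 107 and 100 in input (log2 fold change 2.04 ± 0.09 SE, adjusted p = 0.00385). Leaving out either TRAP array ended the call of Tacr3, and leaving out any 1 array ended that of Ntsr1. The calls of Drd2 and Hcrtr1 stayed, but these fits take their spread from 1 pair of arrays and are not read as support.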

How the data were processed

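The authors hybridized biotin-labeled RNA, after 2-cycle amplification of up to 10 ng, to Affymetrix 430 2.0 arrays and normalized with GCRMA, as the labels and the methods state. No version is given. The deposited table used here holds 1 log2 value for each probe set and array, and raw scanner files were not used here. Whether the fractions were normalized together is not given in the sources used here, and their distributions differ. No further normalization was applied.

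Of 45101 probe sets, 64 controls were left out and 45037 were tested in limma 3.58.1 (R 4.3.3, 1 coefficient for TRAP against input, empirical Bayes, 2-sided), with Benjamini-Hochberg adjustment over all of them. The prior had 0.317 degrees of freedom beside 2 residual ones. P-values measure the spread between 2 pools of a fraction, and the number of arrays limits the precision. Where both arrays of a fraction were under 50 units the fold is a bound, from the mean log2 value of the other fraction against 50 units. Gene names come from the platform annotation (1 symbol for 34945 probe sets, several for 932, none for 9160), and all 53 members matched RefSeq. The fit was also run on simulated data, and the outcome is not used as support here.

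Values are given for every member above background, and the rest are named. Up to 4 genes of each pathway list are named, those that passed with the largest change and then the brightest. Levels are not printed for all of these. Members and lists were chosen with earlier results of these data known. The alternatives were other normalizations, other fits, another background, another threshold, all probe sets of a gene, and each array left out in turn, where the lone array of a fraction is assumed to vary like those of the other. Counting every probe set was chosen after the data were seen.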

Additional observations from a re-analysis of the deposited data

How the results depend on the processing

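The number of G protein and RGS genes higher in TRAP, 6 as reported, was 2 with values under 50 units raised to 50, 10 with an intensity trend in the prior, 2 at an adjusted p under 0.01 and 1 to 9 with an array left out. Counted as probe sets instead, 13 (19.1%, beside 19.2% of all such probe sets) were higher, from 11 genes. The number lower in TRAP, 2 as reported, was 5 with the arrays centred, 0 with values raised to 50, 0 at an adjusted p under 0.01, 1 at a background of 100 units and 1 with the probe sets of each gene averaged, and 1 to 4 with an array left out. The median log2 fold change of these genes was 0.07 after quantile normalization and 0.18 with centring, where that of all genes was 0.04 and 0.03, and 0.47 to 0.58 with an array left out. Over all 10014 genes above background 1868 were higher and 688 lower. With the intensity trend in the prior 2564 were higher and 977 lower, and with centring 2141 were higher. Quantile normalization gave 1221 higher, centring 2125 lower, values raised to 50 gave 445 higher and 198 lower, an adjusted p under 0.01 gave 526 and 214, and leaving out an array gave 739 to 1537 higher and 376 to 574 lower. With values raised to 50, limma warned that most residual variances were 0 and its prior unreliable. Gnas passed under all alternatives but the averaging of its probe sets. Those that leave out an array rest on 1 pair of nearly identical values.

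Log2 fold changes turned sign for some genes that had not passed, and for Gnas. With centring these were Gna11 (-0.37), Gnb1 (-0.01), Rgs17 (-0.16), Gpsm1 (-0.40), Gpsm2 (-0.33), Arrb2 (-0.11), Plcb1 (-0.26), Kcnj9 (-0.36) and Grm5 (-0.12). After quantile normalization they were Gna11 (-0.45), Gnal (-0.02), Gnb1 (-0.14), Rgs17 (-0.29), Gpsm1 (-0.52), Gpsm2 (-0.13), Arrb2 (-0.08), Plcb4 (-0.11), Plcb1 (-0.34), Kcnj9 (-0.32) and Grm5 (-0.09). With the probe sets of each gene averaged they were Gna12 (0.01), Gnai2 (0.21), Gnao1 (-0.44), Gnas (-0.76), Rgs17 (-0.11), Arhgef12 (0.02), Kcnj9 (-0.24) and Grm5 (-0.09). Leaving out an array turned Gna11 (-0.48 to 0.57), Gnal (-0.60 to 1.59), Gnai2 (-0.38 to 0.14), Gnai3 (-0.16 to 1.44), Gng11 (-2.45 to 0.01), Gng13 (-1.01 to 0.04), Rgs10 (-1.62 to 0.30), Gpsm1 (-0.10 to 0.12), Gpsm2 (-0.24 to 0.40), Arrb2 (-0.01 to 0.61), Plcb1 (-0.17 to 0.46), Kcnj9 (-0.51 to 0.61) and Grm5 (-0.12 to 0.69). The cause of these changes was not tested. No paired analysis was possible because the TRAP and input arrays share only the number 2.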
